A study of Mus musculus with 605 samples.

Results

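Among the melanocytes of nevus mouse skin, 35 of the 84 single cells kept (41.7%, exact Clopper-Pearson 95% interval 31 to 52.9) held Ifit3 RNA and 49 held none. The Ifit3-positive cells carried more of the RNA of other interferon genes, with Tgtp2, Irf9, Isg15 and Ifit1 among them, while most immediate early genes, with Ppp1r15a among them, were lower. The 35 cells are those with Ifit3 at a TPM (the abundance of a gene's transcripts, corrected for length and scaled to a common total per cell) of 1 or more, among 88 cells of the plate and 605 of the whole series. A cell was kept when its listed TPM summed to at least 750000, mitochondrially encoded genes made up at most 20% of that sum, and at least 1000 genes were above 0. Ifit3 chose the cells, so its own values are a description, and so are all values of other genes read in the same cells. The 84 cells came from 1 plate of 1 genotype and are not replicates of a condition, so no test was made between the 2 sides, and differences are given with the SD over cells.

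The mutant cells came from dorsal skin of Tyr-Nras Q61K mice at postnatal day 56, in which the tyrosinase promoter drives an activated Nras in the melanocyte lineage. The wild-type melanocytes set beside them were from dorsal skin of the same age. Cells were caught singly in microfluidic chambers of the Fluidigm C1, where, per the study's methods, the Clontech SMARTer kit made the cDNA; the labels name Smart-seq2. No label names an animal, so each of the 7 groups of the series counts as 1 sample, and genotype cannot be told apart from plate. The sources used here do not say how melanocytes were marked for the single-cell plates, and mutant skin at this age also holds growing hair follicles, per the study.

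Interferons are secreted proteins that cells release on infection or when nucleic acids are sensed inside them. Type I interferons bind a receptor of IFNAR1 and IFNAR2, whose kinases phosphorylate transcription factors of the STAT family; with IRF9 these enter the nucleus and bind interferon-stimulated response elements, while interferon gamma has a receptor of its own. IFIT3, the protein of Ifit3, is an RNA-binding adaptor of this antiviral programme, and the classical MHC class I molecules, which present peptides to T cells, are among the genes that both kinds of interferon raise.

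Ifit3 (ENSMUSG00000074896.3) lies at chr19:34583531-34588731 on the plus strand of build GRCm38, in a row with Ifit2, Ifit3b and Ifit1. The 160 bases before a RefSeq start of Ifit3 and of 6 genes described below are shown. Each run holds the letters of an interferon-stimulated response element, and genes without such letters in these bases are not shown. Coordinates are on GRCm38.p6, each run is read 5′ to 3′ on the gene's strand, and capitals mark matches to the motif searched, which is GAAA, then any 2 bases, then GAAA again (TTTC in both places where it lies on the other strand); overlapping matches run together:
Ifit3 (chr19:34583369-34583528, plus strand): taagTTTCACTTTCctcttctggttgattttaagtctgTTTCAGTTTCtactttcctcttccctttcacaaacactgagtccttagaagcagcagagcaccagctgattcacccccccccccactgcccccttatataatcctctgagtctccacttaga
Ifit1 (chr19:34640729-34640888, plus strand): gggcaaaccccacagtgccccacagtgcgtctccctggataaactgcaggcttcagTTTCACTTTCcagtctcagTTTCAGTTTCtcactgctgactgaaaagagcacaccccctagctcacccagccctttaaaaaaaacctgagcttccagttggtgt
Isg15 (chr4:156200819-156200978, minus strand): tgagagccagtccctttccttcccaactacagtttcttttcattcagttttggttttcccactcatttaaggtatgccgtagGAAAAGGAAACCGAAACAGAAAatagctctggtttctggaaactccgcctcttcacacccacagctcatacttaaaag
Gbp3 (chr3:142559884-142560043, plus strand): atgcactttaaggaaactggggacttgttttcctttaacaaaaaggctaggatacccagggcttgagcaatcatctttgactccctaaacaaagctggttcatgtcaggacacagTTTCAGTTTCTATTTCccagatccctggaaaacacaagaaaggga
Irgm1 (chr11:48871421-48871580, minus strand): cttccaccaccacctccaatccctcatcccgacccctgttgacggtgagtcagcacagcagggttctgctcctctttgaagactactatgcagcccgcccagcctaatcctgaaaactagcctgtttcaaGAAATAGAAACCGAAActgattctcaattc
Tgtp2 (chr11:49064213-49064372, minus strand): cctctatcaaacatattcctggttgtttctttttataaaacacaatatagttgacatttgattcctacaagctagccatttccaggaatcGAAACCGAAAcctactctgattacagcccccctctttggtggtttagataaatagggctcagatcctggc
H2-T23 (chr17:36032702-36032861, minus strand): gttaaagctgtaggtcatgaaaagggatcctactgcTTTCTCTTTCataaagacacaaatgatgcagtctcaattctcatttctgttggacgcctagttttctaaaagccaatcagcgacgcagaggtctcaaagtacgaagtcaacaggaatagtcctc
Ifit3 and Ifit1 each hold 2 matches in these bases, Isg15 holds 3 that overlap, and H2-T23 holds 1. Over RefSeq windows of 300 bases (250 before the start and 50 after it), 3.44% of all 32851 windows held a match. Interferon genes higher by at least 0.5 in Ifit3-positive cells, on the log2 scale defined further on, numbered 13, where 0.968% of all genes described were as much higher. Of the 13, 11 had a window and 8 of these held a match (72.7%), namely Bst2, Ifit1, Ifit3b, Ifitm2, Igtp, Irgm1, Isg15 and Tgtp2. Of all 47 interferon genes described, whatever their difference, 35 had a window and 17 of these held a match (48.6%), against 3.53% of the 7105 described genes with a window. The windows of Ifi47, Irf9 and Xaf1 held none, and neither did that of Tap1, a gene of another list. Gbp3 has a second RefSeq start, not shown, whose window held none. H2-T22 held 1 match, further than 160 bases before its start. Among MHC class I genes, 3 of the 10 with a window held a match. A match says only that the letters are there.

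The split by Ifit3 was wide. Every one of the 49 negative cells was listed at exactly 0 TPM. The positive cells ran from 6.53 TPM, the cell just inside the limit, through 62.11 TPM in the next, to a median of 355.92 and a highest value of 2813.46, and 32 of the 35 were at 100 TPM or more. No cell lay between 0 and 6.53 TPM, so the limit of 1 TPM divided no crowd of cells. In the other groups Ifit3 was found in 6 of 81 wild-type melanocytes (7.41%, 2.77 to 15.4), in myeloid cells of either genotype (5 of 73 wild-type, 4 of 72 mutant), and in 0, 1 and 1 of 84, 83 and 89 bulge stem cells, the keratinocyte stem cells of the hair follicle. The count of 0 among bulge cells of postnatal day 30 leaves room for a share of 3.57%. None of the cells left out by the limits on quality held Ifit3, in any of the 7 groups. Rows A to D of the plate held 19 positive cells among 45, and rows E to H 16 among 39. No cell's values were identical to those of another cell.

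Ifit3-positive cells were richer in detected genes. They had a median of 3132 genes above 0 TPM (1808 to 5925) against 2560 (1013 to 6416) in negative cells, and 5.13% against 6.30% of TPM in mitochondrially encoded genes. TPM keeps no read depth, so genes detected stands in for depth throughout. Each comparison was therefore repeated in 27 positive and 27 negative cells paired to within 10% in genes detected, with medians of 3019 and 2987 genes. This second value is called the matched difference. Among positive cells alone, Ifit3 TPM and genes detected had a Spearman correlation of -0.45 over 35 cells of the plate.

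Both sides were melanocytes by their markers. The melanocyte set had the highest mean of the marker sets in 32 of 35 positive and in 47 of 49 negative cells; the others were led by keratinocyte (1 positive and 2 negative cells), Schwann cell (1 positive) or endothelial genes (1 positive). Myeloid markers summed to a median of 1.73 TPM in positive cells (0 to 9523) and 0 in negative cells (0 to 4820). Of the 12 myeloid markers, 11 were higher in positive cells. Of all 30956 genes with a row 24.9% were higher, with 16105 at 0 in every cell. All 4 markers detected often enough to describe were among the 11 (median 0.23, matched 0.21), where 56.1% of all genes described were higher. H2-Ab1 was found in 11 of 35 against 9 of 49 cells, H2-Aa in 10 against 10, Cd74 in 8 against 10 and Lyz2 in 4 against 5. C1qa and Fcer1g were each found in 3 positive and 1 negative cells, and Ptprc, Csf1r, C1qb, C1qc and Aif1 each in 1 positive and 0 negative cells. All 6 keratinocyte markers detected often enough to describe were lower in positive cells, where 43.9% of all genes described were lower. Krt5 was found in 5 of 35 against 20 of 49 cells, with a median of 0.72 TPM in negative cells. Its difference, on the log2 scale defined further on, was -0.34, with -0.62 in rows A to D and -0.03 in rows E to H. T and NK cell markers had a median sum of 0 TPM on both sides. The part of keratinocyte and myeloid RNA in the results was not tested. Alternatives without cells led by another set, or without those holding Ptprc, Csf1r, C1qb, C1qc or Aif1, are given with the limits at the close.

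Across the plate, 8989 genes were at 1 TPM or more in 10% or more of the cells on a side. Each cell's TPM was scaled to a sum of 10000, and a difference is that of the mean log2(scaled TPM + 1), positive minus negative, which understates the change of genes with low values. On this scale 87 genes were higher by at least 0.5 in positive cells (0.968%) and 24 were lower by as much (0.267%), while 56.1% were higher and 43.9% lower by any amount. The median over all genes was 0.02. In the matched cells 0.95% of 9263 genes were higher and 0.95% lower by at least 0.5, and 49.1% were higher by any amount. Of the 87 higher genes 45 still passed 0.5 there and all 87 were still higher, and of the 24 lower genes 14 still passed and 22 were still lower. The matched cells are a part of the cells that picked these genes, so a kept direction was close to assured. Interferon genes, taken as the IFIT, effector, GTPase and STAT and IRF lists, made up 13 of the 87. They numbered 47 among the 8989, but 18 of the 47 reached the limit of 10% in positive cells only, so a positive difference was close to assured for these, and 1 in negative cells only. A limit of 10% over both sides together, added after the data were seen, does not ask on which side a gene lies. It left 7975 genes, of which 56.4% were higher and 1.09% higher by at least 0.5, and 40 interferon genes, of which 37 were higher and 13 passed 0.5. Of all 69 interferon genes with a row, Ifit3 not counted, 53 were higher and 11 were at 0 in every cell. Of all 30956 genes with a row, counted likewise, 24.9% were higher, 0.281% passed 0.5 and 16105 were at 0 in every cell.

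**Figure D1:**
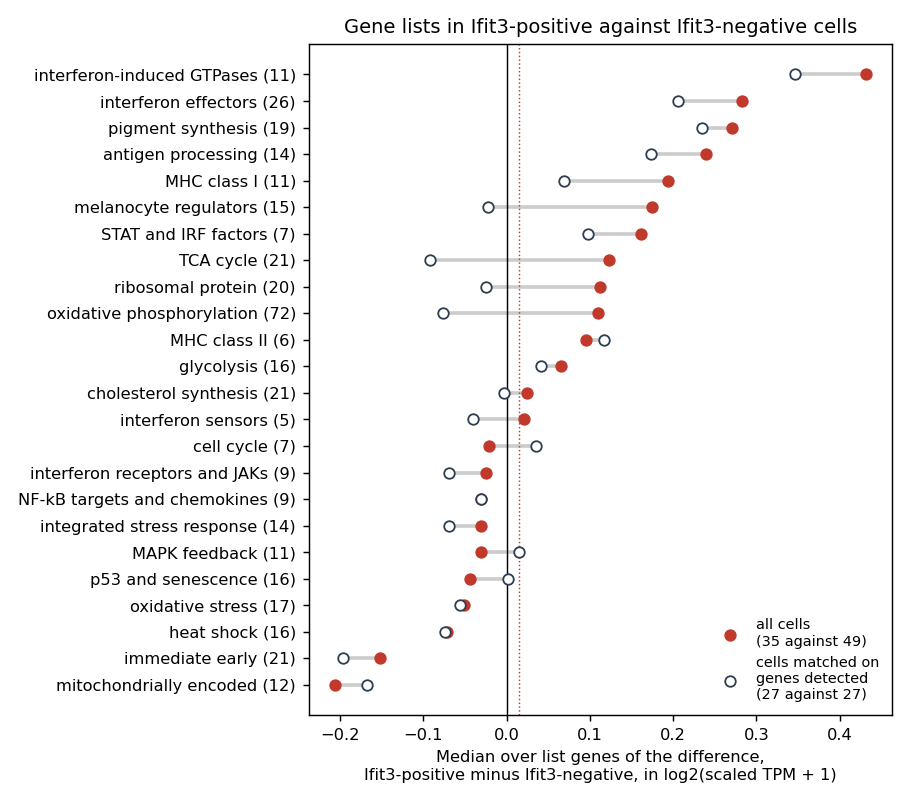
Median difference of each gene list between Ifit3-positive and Ifit3-negative cells, on the axis of log2(scaled TPM + 1), for all cells (filled) and for cells matched on genes detected (open), with the number of genes behind the filled point in brackets. Interferon GTPases and effectors stay on the right in both, at 0.43 and 0.35 for the GTPases, where 5 of the 11 GTPases and 9 of the 26 effectors reached the detection limit in positive cells only, whereas oxidative phosphorylation and the TCA cycle cross 0 when cells are matched; the dotted line is the median of all genes, 0.02.

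Irf9 encodes the DNA-binding partner in the transcription complex that type I interferon assembles. Its TPM ran from 0 through a median of 51.3 to 1295 in positive cells and from 0 through 0 to 571 in negative cells. The ranges overlapped, but it was found in 21 of 35 positive cells (60%, 42.1 to 76.1) and 12 of 49 negative cells (24.5%, 13.3 to 38.9), and where found its median was 233 against 137 TPM. The Irf9 difference was 0.71 (1.06 ± 1.16 against 0.35 ± 0.75, SD over 35 and 49 cells), and the matched difference 0.78. Stat2, which joins the same complex, differed by 0.18 and Irf7, a factor that raises type I interferon production, by 0.16. Irf1 and Stat3, which other cytokines also drive, differed by -0.09 and -0.14.

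The neighbours of Ifit3 on the chromosome were higher too. Ifit1 ran up to 929 TPM in positive and 486 TPM in negative cells, with a median of 0 on both sides, and was found in 11 of 35 against 4 of 49 cells (difference 0.53, matched 0.55). Without the 5 cells of highest Ifit3 the Ifit1 difference was 0.25. Ifit3b was found in 15 against 4 cells (difference 0.73; 0.43 in rows A to D and 1.07 in rows E to H) and Ifit2 in 8 against 2 (difference 0.28). IFIT1 binds viral RNA lacking the host's cap methylation, and forms complexes with IFIT2 and IFIT3. Ifit3b is a near-identical copy of Ifit3, and the authors' estimation may have split reads between them, so both values are uncertain. Of the 35 positive cells, 21 held at least 1 of Ifit1, Ifit2 and Ifit3b and 3 held all 3; of the 49 negative cells, 8 held at least 1 and 41 none.

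Interferon effectors are the proteins that restrict viruses or adjust the response. The 26 described had a median difference of 0.28 (matched 0.21, where 19 of 23 were higher and 1 passed 0.5), but 9 of the 26 were described through positive cells only. Of the 19 found in 10% of both sides together, 18 were higher and 5 passed 0.5, where 56.4% and 1.09% of all genes so found did. Of all 42 with a row 30 were higher and 9 were at 0 in every cell. Of all 30956 genes with a row 24.9% were higher and 16105 were at 0 in every cell. ISG15 is a ubiquitin-like protein induced by interferon and joined to other proteins by enzymes that interferon also induces. It was found in 14 of 35 positive cells (40%, 23.9 to 57.9) and 3 of 49 negative cells (6.12%, 1.28 to 16.9), with a highest value of 513 against 137 TPM. Isg15 differed by 0.50 (matched 0.55), and by 0.28 without the 5 cells of highest Ifit3. Where it was found, its median was 138 TPM in the 14 positive and 133 TPM in the 3 negative cells. Bst2, the tether of budding viruses, differed by 0.67 but was found in 21 cells on each side and had a matched difference of 0.32. Xaf1, a proapoptotic interferon gene, was found in 19 against 9 cells (0.58, matched 0.42; 0.88 in rows A to D and 0.23 in rows E to H). Rtp4, a receptor transport protein induced by interferon, was found in 10 against 3 (0.36, matched 0.36; 0.16 without the 5 cells of highest Ifit3). The membrane proteins Ifitm2 and Ifitm3 differed by 0.53 and 0.41 but by 0.09 and 0.12 in matched cells. Ifi27l2a and Parp12 were lower, at -0.21 and -0.13.

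The interferon-induced GTPases, which attack the membranes of vacuoles that hold microbes, were higher in positive cells. All 14 members of the list had a positive difference, whatever their level, and 4 passed 0.5. Of all 30956 genes with a row, 24.9% were higher and 0.281% passed, but 16105 of the 30956 were at 0 in every cell, and none of the 14 was. Of genes found in 10% of both sides together, 11 of 11 GTPases were higher and 4 passed, where 56.4% and 1.09% of all genes so found did. The 11 described had a median of 0.43 (matched 0.35). Gbp3, Gbp6, Iigp1, Ifi47 and Tgtp1 reached the detection limit in positive cells only, where a positive difference was close to assured; the other 6 were also higher, with a median of 0.47. Gbp3, a guanylate-binding protein, was found in 11 of 35 positive cells, up to 466 TPM, and was listed at 0 in all 49 negative ones (a share of 6.12% would still be possible). It was also found in 8 of 81 wild-type melanocytes. Tgtp2 TPM ran from 0 through 79.6 to 1405 in positive and from 0 through 0 to 1753 in negative cells; it was found in 19 against 7 cells and differed by 0.90 (matched 1.16; 1.49 in rows A to D and 0.20 in rows E to H). Its levels where found were alike, with medians of 287 and 296 TPM. Irgm1, an immunity-related GTPase that regulates the others, differed by 0.71 (matched 1.12; 1.07 in rows A to D and 0.30 in rows E to H). Ifi47, found in 15 against 4 cells, differed by 0.56 (0.75 in rows A to D and 0.33 in rows E to H), and Igtp by 0.50. Tgtp2 has a near-identical copy, Tgtp1, found in 10 against 2 cells, and their reads may be split.

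**Figure D2:**
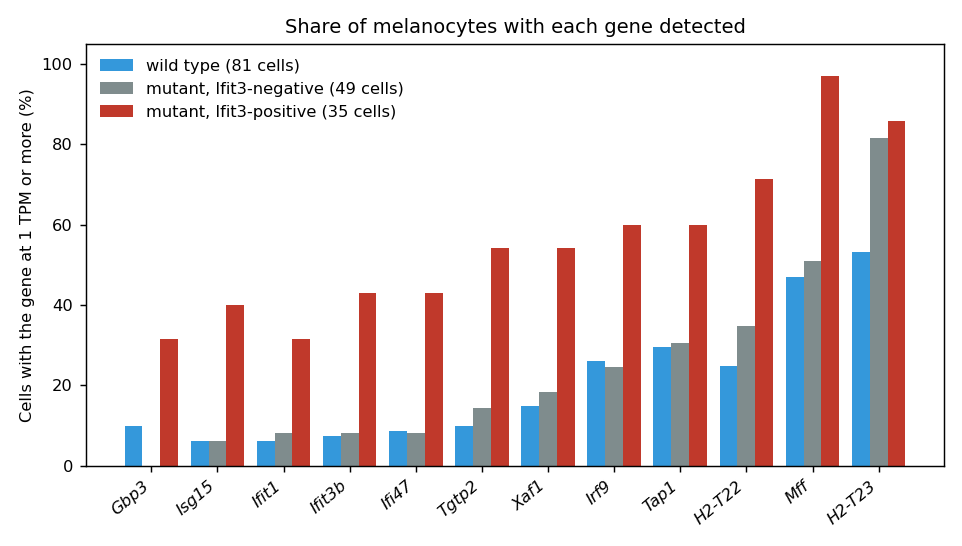
Share of cells (%) in which each gene was at 1 TPM or more, for wild-type melanocytes and the 2 sides of the mutant plate. Isg15 was found in 5 of 81 wild-type, 3 of 49 Ifit3-negative and 14 of 35 Ifit3-positive cells, and Gbp3 in 8 of 81, 0 of 49 and 11 of 35, whereas H2-T23 was found in 40 of 49 negative cells, close to the 30 of 35 positive ones.

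The members that act upstream of these genes went both ways. The receptors and kinases (Ifnar1, Ifnar2, Ifngr1, Ifngr2, Jak1, Jak2, Tyk2 and their regulators) had a median difference of -0.03, with 4 of 9 higher. Ifnar2 differed by 0.31 and Jak2, found in 10 against 3 cells, by 0.11. Socs3, a feedback inhibitor of JAKs that growth factors and other cytokines also raise, was the exception at -0.71 (matched -0.26). The nucleic acid sensors had a median of 0.02, with Ifih1 at 0.01 and Tmem173, the adaptor of DNA sensing, at -0.14. All 19 interferon genes looked up, among them Ifnb1, Ifng, Ifne and Ifnk, were listed at 0 in every one of the 84 cells, where a share of 3.57% would still be possible.

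Interferon genes were found together in the same cells. Counting 69 interferon genes without Ifit3, a positive cell held a median of 19 at 1 TPM or more (5 to 39) and a negative cell 9 (1 to 19). At least 20 were found in 17 of 35 positive and 0 of 49 negative cells, a limit chosen after the values were seen. The ranges overlapped, since 18 positive cells lay at or under the highest negative cell. In matched cells the medians were 17 and 9. In wild-type melanocytes, not matched and with fewer genes detected, the median was 6 (2 to 26). The cell richest in interferon genes held 39 of them, with Ifit3 at 1085, Tgtp2 at 1061, Isg15 at 320 and H2-T23 at 1620 TPM, and had 3178 genes detected. The next richest positive cell held 31 and had a mean of 0 over the pigment genes. The counts were not repeated without cells led by another marker set. The richest negative cell held 19, with Tgtp2 at 892 and Isg15 at 0 TPM. Over the 84 cells Ifit3 TPM and the mean log level of the interferon genes other than Ifit3b had a Spearman correlation of 0.54, and within the 35 positive cells 0.37. All points share the plate.

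**Figure D3:**
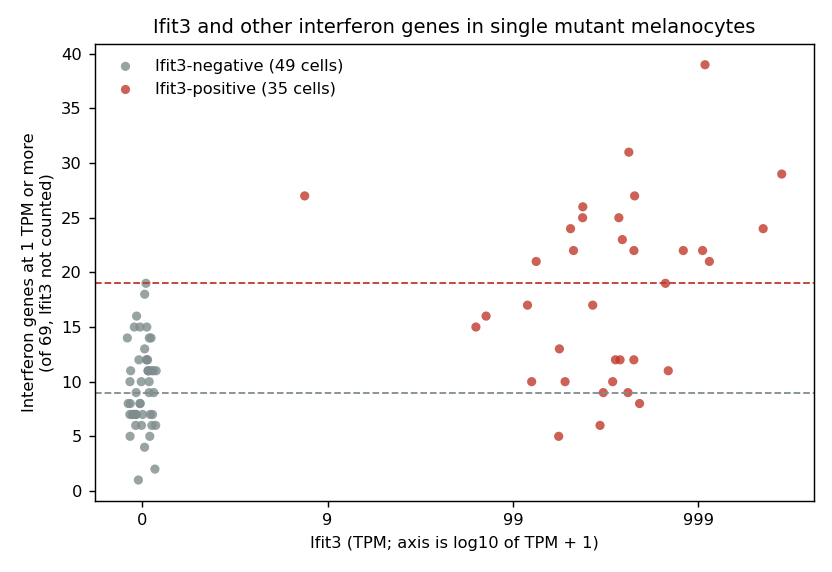
Each point is 1 cell kept from the mutant melanocyte plate, with Ifit3 (TPM, log axis) against the number of 69 other interferon genes at 1 TPM or more. Negative cells at 0 are spread sideways, and dashed lines are the medians of 19 and 9. The cell at 6.53 TPM, lowest of the positive cells, lies among the richer ones, and several cells above 99 TPM lie at the level of negative cells.

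The count of interferon genes grew with the genes detected, and the gap between sides was seen at each level of it. Ordered by genes detected, the first 28 cells (1013 to 2448 genes) held 5 positive cells, the middle 28 held 16 and the last 28 (3256 to 6416 genes) held 14. The median counts were 11 against 8 interferon genes in the first, 16.5 against 8.5 in the middle and 21.5 against 11.5 in the last. The Tgtp2 difference was 0.48, 0.65 and 1.54 in turn, and the Isg15 difference 0.78, 0.57 and 0.35. Of the pigment genes, Pmel turned from 1.87 to -0.47 to 0.83 over the same 3 sets of cells.

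**Figure D4:**
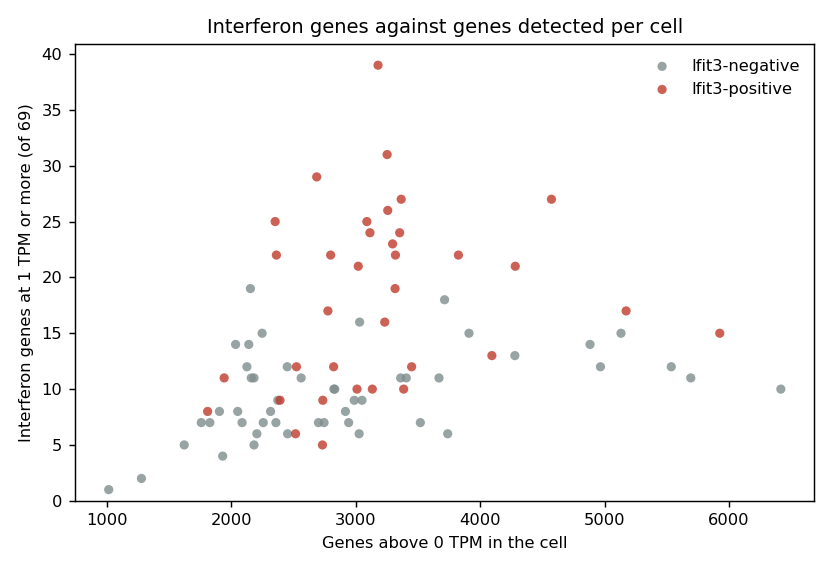
Number of interferon genes at 1 TPM or more (of 69) against the genes above 0 TPM in each mutant melanocyte. Positive cells (median 3132 genes) tend to lie above negative cells (median 2560 genes) of like number of genes detected, with overlap.

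Most MHC class I genes were higher in positive cells. Of all 13 with a row, 11 were higher and 1 passed 0.5, where 24.9% of all genes with a row were higher and 0.281% passed. None of the 13 was at 0 in every cell, whereas 16105 of all 30956 genes with a row were. Of the 9 found in 10% of both sides together, 8 were higher, where 56.4% of all genes so found were. The 11 described, 2 of them through positive cells only, had a median of 0.19, and in matched cells 7 of 10 were higher and the median was 0.07. The median was 0.34 in rows A to D and 0.05 in rows E to H of the plate. H2-T23 encodes the class Ib molecule Qa-1, a ligand of inhibitory receptors on NK and T cells. Its TPM ran from 0 through 671 to 4029 in positive cells and from 0 through 459 to 4378 in negative cells, so the sides overlapped over their whole range. It was found in 30 of 35 and 40 of 49 cells and differed by 0.45 (2.80 ± 1.57 against 2.36 ± 1.51; matched 0.50), with 0.68 in rows A to D, 0.18 in rows E to H and 0.21 without the 5 cells of highest Ifit3. H2-T22, a class Ib molecule that some gamma delta T cells recognise, was the gene past 0.5. It was found in 25 of 35 against 17 of 49 cells, with a median of 205 against 0 TPM, and differed by 0.86 (matched 0.80; 1.28 in rows A to D and 0.37 in rows E to H). The light chain B2m was found in every cell and had medians of 10165 and 10471 TPM, and H2-D1 and H2-K1, the classical heavy chains, differed by 0.14 and 0.30. Class I genes share long stretches of sequence, so reads may be divided among them.

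The machinery that makes and loads peptides was higher in 13 of 14 genes, with a median of 0.24, where 56.1% of all genes described were higher. In matched cells 12 of 14 were higher and the median was 0.17, where 49.1% of all genes were higher. Tap1, a subunit of the peptide transporter, was found in 21 of 35 against 15 of 49 cells, with a median of 125 against 0 TPM, and differed by 0.76 in all and in matched cells. Its partner Tap2 differed by 0.46 and the immunoproteasome subunits Psmb8 and Psmb9 by 0.53 and 0.41 (matched 0.23 and 0.33). Calr, a chaperone of the endoplasmic reticulum that also serves peptide loading, was the exception at -0.34 (matched -0.58). Over the cells, the mean level of antigen processing genes followed that of the interferon genes (Spearman 0.55 over 84 cells, 0.64 within the positive and 0.44 within the negative). For MHC class I genes the values were 0.39, 0.30 and 0.45. With genes detected, over the 84 cells, antigen processing had a Spearman correlation of 0.37 and MHC class I of 0.05. MHC class II genes had a median of 0.10 and were found in few cells.

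Set beside wild-type melanocytes, the interferon genes of Ifit3-negative mutant cells lay on both sides of wild type, while most of MHC class I was above wild type on both sides of the split. The 2 comparisons share the same 81 wild-type cells, and both are over the 7571 genes found in 10% of the wild-type and mutant cells together, of which 55.4% were higher than in wild type in negative and 59.8% in positive cells. The 10 interferon GTPases among them had a median difference from wild type of -0.06 in Ifit3-negative cells (4 higher) and 0.32 in Ifit3-positive cells (10 higher), and the 16 effectors 0.02 (8 higher) and 0.52 (16 higher). Irf9 differed from wild type by -0.08 and 0.63, Tgtp2 by 0.09 and 0.98, and Isg15 by -0.03 and 0.48. Some effectors were above wild type on both sides, with Ifitm3 at 1.14 and 1.55, Ifi27 at 1.04 and 1.44, Lgals3bp at 0.92 and 1.36 and Bst2 at 0.39 and 1.06; Bst2 was found in 13 of 81 wild-type and 21 of 49 negative cells. Gbp3 was below wild type in negative cells, at -0.21, and above it in positive cells, at 0.25. MHC class I had a median over 9 genes of 0.57 in negative and 0.90 in positive cells, with 8 higher on each side. H2-T23 differed from wild type by 1.10 and 1.55, H2-D1 by 0.90 and 1.04, and B2m by 0.57 and 0.85. H2-T22 differed from the other class I genes named here, at 0.04 from wild type in negative cells and 0.90 in positive cells. These comparisons were not matched on genes detected, with medians of 2233 in wild-type, 2560 in Ifit3-negative and 3132 in Ifit3-positive cells. Whether the difference from wild type belongs to genotype or plate cannot be told apart.

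**Figure D5:**
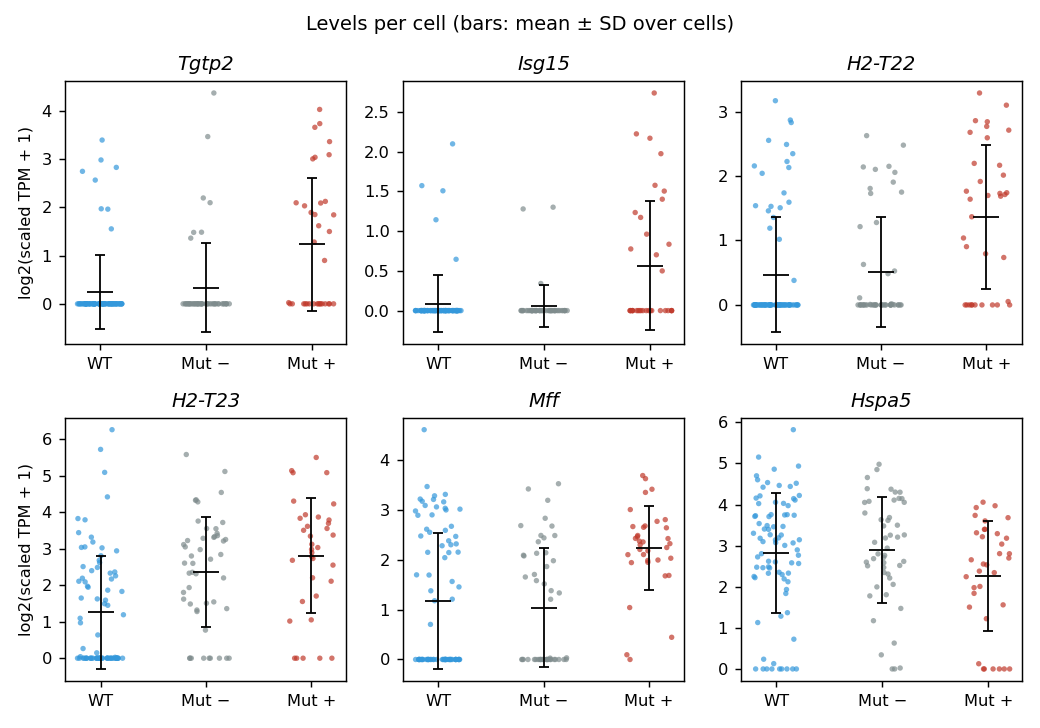
Level of 6 genes in each cell, as log2(scaled TPM + 1), in wild-type melanocytes (WT), Ifit3-negative (Mut −) and Ifit3-positive (Mut +) mutant melanocytes; bars are means ± SD over cells and reach below 0 where most cells are at 0. Tgtp2, Isg15 and H2-T22 are near wild type in negative cells, H2-T23 is above wild type on both sides, and Hspa5 is lowest in positive cells.

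Pigment genes were also higher. Of 19 described, 16 were higher and 3 passed 0.5, with a median of 0.27. Of all genes described 56.1% were higher and 0.968% passed. In matched cells 13 of 19 were higher and the median was 0.24, where 49.1% of all genes were higher. Tyrp1, an enzyme of melanin synthesis, had a median of 3560 TPM in positive (0 to 20838) and 1868 TPM in negative cells (0 to 24165). Its difference was 0.92 in all cells (5.06 ± 1.56 against 4.14 ± 1.84, SD over cells) and 0.25 in matched cells. Pmel, the fibril protein of the melanosome, differed by 0.95 (4.76 ± 2.85 against 3.81 ± 2.79) and by 0.39 when matched. In rows E to H the Tyrp1 and Pmel differences were 0.52 and 0.59. Mlana, by contrast, differed by 0.48 and by 0.63 when matched, and Rab32, which brings enzymes to melanosomes, by 0.52 and 0.51. Gpnmb, a glycoprotein of melanosomes and lysosomes, was lower at -0.46 (matched -0.63). The regulators of the lineage had a median of 0.18 that became -0.02 in matched cells, with Mitf at 0.24 and 0.07. Over cells, the pigment mean did not follow the interferon mean (Spearman 0.09 over 84 cells, -0.02 within the positive).

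In metabolism, the mitochondrial lists turned with matching. Of 72 nuclear genes of oxidative phosphorylation, 52 were higher (median 0.11), where 56.1% of all genes described were. In matched cells, by contrast, 28 were higher and the median was -0.08, where 49.1% of all genes were higher. The TCA cycle went from 0.12 to -0.09. Single genes stood out: Cox6a1 and Ndufb8, subunits of complexes IV and I, differed by 0.92 and 0.84 (matched 0.34 and 0.59). The 12 mitochondrially encoded genes described had a median of -0.21 (matched -0.17). Glycolysis had a median of 0.07, with 9 of 16 higher, and the genes past 0.5 were Pkm, Ldha and Aldoa, at 0.62, 0.59 and 0.51 (matched 0.43, 0.44 and 0.61). Gpi1, an earlier step of the same pathway, differed by -0.46. Mff encodes the receptor that recruits the fission enzyme to mitochondria, and is in no interferon list. Its median was 360 TPM in positive and 1.72 TPM in negative cells, it was found in 34 of 35 against 25 of 49 cells, and it differed by 1.19 (matched 0.86; 0.60 in rows A to D and 1.87 in rows E to H).

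Most immediate early genes were lower in Ifit3-positive cells, and other stress lists had medians closer to that of all genes. Of 21 immediate early genes, which respond within minutes to growth factors and stress, 18 were lower, 6 by at least 0.5, with a median of -0.15, where 43.9% of all genes were lower. In matched cells 50.9% of all genes were lower, the median of the list was -0.20 and 2 passed. Atf3, Socs3, Ier3, Ppp1r15a, Btg2 and Junb were the 6 of all cells. Cell by cell, the immediate early mean was not lower where the interferon mean was higher. Their Spearman correlation was 0.06 over 84 cells, 0.04 within the positive and 0.23 within the negative. Ppp1r15a, the phosphatase subunit that ends the stress block on translation, was found in 21 of 35 against 37 of 49 cells. It differed by -0.68 (matched -0.73, with -0.37 in rows A to D and -1.02 in rows E to H). Atf3, a stress transcription factor, instead went from -0.72 (1.23 ± 1.74 against 1.95 ± 2.22, SD over cells) to -0.21 in matched cells, and Junb from -0.52 to 0.08. The heat shock list had a median of -0.07, with 9 of 16 lower and 7 higher. In matched cells the list again had a median of -0.07, but only 2 of 16 were higher and 3 were lower by at least 0.5. Of its members Hspa5, the chaperone BiP of the endoplasmic reticulum, had medians of 445 and 610 TPM, with ranges of 0 to 1465 and 0 to 2838, and differed by -0.63 (matched -0.80; -1.03 in rows A to D and -0.15 in rows E to H). Hsp90aa1, the inducible cytosolic HSP90, differed by -0.64 (matched -0.79). The integrated stress response, oxidative stress and p53 and senescence lists had medians of -0.03, -0.05 and -0.04, and none of their genes passed 0.5 in either direction. In matched cells 3 of 13, 6 of 17 and 8 of 16 of their genes were higher. There 1 integrated stress response gene was lower by at least 0.5.

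Other lists were near the median of all genes. NF-kB targets and MAPK feedback genes both had medians of -0.03, and cell cycle genes -0.02. Cdkn2b, an inhibitor of the cell cycle, was found in 1 positive and 2 negative cells, and Cdkn2a in none. Spp1, the secreted factor osteopontin, was found in 0 of 35 positive and 5 of 49 negative cells (mean 133 TPM over the 49, and 31.1 TPM over 48 without 1 cell at 5037 TPM). Nras itself was found in 24 of 35 against 28 of 49 cells and differed by 0.19; the reads of the transgene and the mouse gene were not told apart here.

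By rank correlation with Ifit3 over the 84 cells, the genes most like it included Isg15 (0.52), Ifit3b (0.50), Mff (0.48), Gbp3 (0.46), Ifit1 (0.43), Tgtp2 (0.42), Il16 (0.40), Rtp4 (0.39) and Mkl2 (0.39). Of those named, Mff, Il16 and Mkl2 are in no interferon list. Il16, a chemoattractant of CD4 cells, was found in 12 of 35 against 4 of 49 cells. Genes with the largest positive differences included Mff, Pmel, Ctsz, Tyrp1, Cox6a1, Tgtp2, H2-T22, Ndufb8, Rbbp7, Scpep1 and Slc25a5, from 1.19 down to 0.77. In all and in matched cells Ctsz, a lysosomal protease, was at 0.94 and 0.72, while Slc25a5, the mitochondrial ATP carrier, was at 0.77 and 0.00. The 12 with the largest negative differences, from -0.76 to -0.62, were Sertad1, Atf3, Ier3, Socs3, Rnf181, Ppp1r15a, Higd2a, Hsp90aa1, S100a10, Drg1, Hspa5 and Vps25. Of these 8 still passed in matched cells, which are a part of the same cells. Sertad1, a cell cycle cofactor, was found in 5 of 35 against 25 of 49 cells.

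The same limit on Ifit3 was applied to the other groups where each side held at least 5 cells, and the values stand beside those above with no comparison. Genes were those found in 10% of all cells of the group. Among wild-type melanocytes (6 against 75 cells, 47.8% of genes higher) the interferon effectors had a median of 0.19, with 11 of 14 higher, and the GTPases -0.09, with 2 of 5 higher. Irgm1 differed there by 1.64, Mff by 1.10, H2-T23 by 0.98 and Gbp3 by -0.01. Pigment genes had a median of -0.09, with 8 of 18 higher. Immediate early genes were higher there, with a median of 0.33 and 17 of 22 above 0, where the mutant plate had -0.15. Among wild-type myeloid cells (5 against 68, 40.3% higher) the effectors had a median of 0.28 (22 of 30 higher), Ifit1 differed by 1.55 and Mff by -0.35. With 5 or 6 cells on a side, 1 cell can set such a value.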

How the data were processed

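RNA was measured in single cells of mouse skin in 7 groups of 1 sample each. Per the study's methods, the authors aligned reads to GRCm38 (mm10) with a GENCODE annotation using STAR (2.4.2 in the submitters' processing notes) and quantified genes with RSEM, and the deposited values are TPM; the methods name FPKM for quantification but TPM for single cells. TPM keeps no read depth, so depth per cell is unknown. Chambers with no or several cells were left out by the authors under the microscope, and no doublet caller was run here. The wild-type myeloid table holds 1 column that no label names, and it was left aside.

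The 40 symbols given to more than 1 identifier were averaged, leaving 30957 symbols. Cells were filtered as described, with 2000 to 7000 genes for bulge cells as the study states. TPM was divided by the cell total, multiplied by 10000 and taken as log2(value + 1). A gene was described when at TPM 1 or more in 10% or more of the cells on a side, and a list from 4 such genes. Since a gene can pass that limit through the side where it is high, lists were also counted over genes found in 10% of both sides together and over all members; comparisons with wild type and within other groups used the limit over all their cells. Cells were paired 1 to 1 on genes detected, nearest first. Named genes were list members, the 12 highest and 12 lowest differences among genes found in at least 25% of a side, and the 10 highest Spearman correlations with Ifit3 among genes found in at least 10% of the 84 cells, leaving aside pseudogenes, predicted genes, sex-linked genes, and mitochondrial and ribosomal protein genes. The members and all 27 gene lists and 9 marker sets were chosen with earlier results of these data known. Of the list genes, 5 had no row. A result that the rule would name is not reported here, though counts over lists and over all genes include every gene. Intervals for shares are exact Clopper-Pearson 95% intervals and, like limits for a count of 0 (3 cells), cover counting error only. Older symbols were matched to RefSeq windows through RefSeq synonyms. Alternatives covered the Ifit3 limit, genes detected, scaling, filters, wells and cell identity. The steps ran in Python 3.11.15 (SciPy 1.17.1, NumPy 2.4.6, pandas 2.3.3, and matplotlib 3.10.9 for figures). The step that takes differences was tried on the kept cells of the plate, split at random, with some genes multiplied by known factors. The matching, motif and wild-type steps were not tried in this way.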

Additional observations from a re-analysis of the deposited data

How the results depend on the processing

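The cells of each group are 1 sample, so there was no replicate to leave out, and no value has a replicate check. No paired analysis was possible because each side is made of single cells of 1 plate and no result comes from a test. Values read on TPM set the limits: the depth of a cell is unknown, and a gene listed at 0 is not thereby absent.

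Over 16 alternatives 66 results gave 1029 values, of which 890 stayed close to the value above, 132 moved by over 1.5 times and 7 turned direction. A list or gene value counted as moved only if it also shifted by more than 0.1. A turn was counted only from a value of at least 0.1 for lists or 0.5 for genes. Sign changes of smaller values are not among the 7, such as that of heat shock genes from -0.07 to 0.06 in rows E to H. Of those that moved, 59 came from the alternative with no scaling. A split at above 0 TPM was the same as that at 1 TPM, and 34 and 32 of the 35 positive cells stayed at 10 and 100 TPM. Such alternatives could hardly move a value, so the tally does not measure how firm the results are. The share of positive cells stayed between 38.1% and 44%. Raising the Ifit3 limit to 10 or 100 TPM and keeping only cells led by melanocyte genes moved none. Nor did counting detection over both sides together, or leaving out cells with Ptprc, Csf1r, C1qb, C1qc or Aif1, both chosen after seeing the data. Each of these genes was found in 1 positive and 0 negative cells, so few cells left and little could move. Cells with C1qa, Fcer1g, H2-Ab1, H2-Aa, Cd74 or Lyz2 but none of these genes stayed in. Leaving out the 5 cells of highest Ifit3 moved 5, with Isg15 at 0.28, Ifit1 at 0.25, Rtp4 at 0.16 and H2-T23 at 0.21 among them. With no scaling, log2(TPM + 1) gave 2583 genes higher and 1124 lower, and medians of 1.26 for effectors, 1.74 for GTPases, 0.52 for MHC class I, 0.89 for antigen processing, 0.84 for pigment synthesis, 0.35 for glycolysis, 0.53 for oxidative phosphorylation, -0.55 for immediate early and -0.26 for heat shock genes. Its scale is wider by construction. Matching on genes detected gave 88 genes lower and an MHC class I median of 0.069, and turned oxidative phosphorylation to -0.076, the TCA cycle to -0.092, melanocyte regulators to -0.022 and ribosomal protein genes to -0.025. The linear fit on genes detected gave 41 genes lower, an immediate early median of -0.25 and a ribosomal protein median of -0.027. Rows A to D alone gave 182 genes higher and 84 lower, MHC class I 0.34, oxidative phosphorylation -0.011 and mitochondrially encoded genes 0.17. Rows E to H gave 309 and 115, MHC class I 0.048, antigen processing 0.041, glycolysis 0.17 and oxidative phosphorylation 0.23. Fewer cells stood on each side there. Between 2000 and 7000 genes per cell, 42 genes were lower and MHC class I was at 0.086, and with all genes above 0 effectors were at 0.17. For the other shifts the cause was not tested.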

Other observations

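Further lists were read in the same cells. The 20 ribosomal protein genes had a median difference of 0.11, positive minus negative, with 15 higher. The 21 cholesterol synthesis genes had 0.02, with 13 higher and none past 0.5 in either direction. Of all genes described 56.1% were higher. The STAT and IRF list had a median of 0.16. Of the 12 secreted factors that the study follows, only Fstl1 and Spp1 were found often enough to describe, and Fstl1 was found in 4 of 35 against 7 of 49 cells. Zeb1, a transcription factor of mesenchymal states in melanocytes and melanoma, was found in 13 positive and 3 negative cells (difference 0.24, matched 0.23), and Sox9 in 3 against 12 (-0.14). These were chosen after their values were seen.

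Of the remaining marker sets, the 10 melanocyte genes were all higher in positive cells (median 0.28), but 7 of 10 in matched cells (median 0.17). The shares of all genes that were higher were 56.1% and 49.1%. Schwann cell genes had a median of 0.12 over 4 genes and fibroblast genes -0.03 over 4. Mast cell markers summed to medians of 239 and 200 TPM, a set that holds Kit, which melanocytes also express, and 7 of its 8 genes were at 0 in every cell. Erythroid markers reached 84.5 TPM in a negative cell.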
